A study of Mus musculus with 9 samples.

Results

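Hearts of C57BL/6 mice given angiotensin II (AngII) were compared with hearts of mice given saline across every gene that the deposited table could support. Each group had 3 RNA sequencing libraries from heart tissue. The genes described are those at 1 FPKM or more in at least 3 of the 9 libraries of the study, which left 11902 of the 16951 genes in the table. FPKM is the number of fragments per kilobase of transcript, scaled to the mapped reads of the library, so it is a level per length. Another group of 3 libraries, from mice given AngII with prostaglandin E1 (PGE1), entered the filter and the shared estimate of spread and is not otherwise described. All mice were of the same strain, and no transgene or deleted allele is named. The sources used here do not give dose, route, length of treatment, age, sex or hour of collection. No label states whether each library is 1 animal, so p-values measure only how these libraries vary, and that variation may be technical. Column names give the group of a library but not its sample, so the numbers 1 to 3 of the libraries follow the order of the columns.

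AngII is a pressor peptide that acts mainly through the type 1 angiotensin receptor. In the heart it is known to promote growth of cardiomyocytes, activation of fibroblasts and recruitment of monocytes. The healthy adult heart draws most of its energy from fatty acid oxidation in mitochondria. A heart under pressure load commonly returns to genes of fetal cardiac muscle and lowers its genes of fatty acid oxidation.

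Between libraries, 11049 to 11970 genes reached 1 FPKM, and the summed FPKM was 539083 to 680885. These sums are no read depth, and the depth behind a value is unknown. The library saline 2 stood apart from the other saline libraries. Its mean Pearson correlation over genes was 0.9762 with the AngII libraries, against 0.9540 with saline 1 and 3, as a description over genes of the same libraries. The library nearest to it was AngII+PGE1 1 (0.9862). That library stood apart from its own group too, with 0.9662 and 0.9576 to AngII+PGE1 2 and 3, against 0.9875 between those libraries, and it enters the estimate of spread. Each pathway list is therefore given with all libraries and without saline 2. For single genes the values with all libraries are printed, and the call without saline 2 is added where it differs.

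With all libraries, 370 genes passed (3.11% of those tested; limma adjusted p under 0.05), of which 156 were higher with AngII (1.31%) and 214 lower (1.80%). Of the higher genes 97 differed by at least 2-fold, and of the lower genes 100 did. The higher genes had a median of 11.7 FPKM in AngII hearts and the lower genes one of 32.2 FPKM in saline hearts, so the lower genes were the more abundant. Without saline 2, 4522 genes passed (38.0%), 2134 higher (17.9%) and 2388 lower (20.1%), and these held all 370. Those 2 shares are the ones against which every count without saline 2 is to be read. Counts with all libraries are to be read against 1.31% higher and 1.80% lower. Without AngII+PGE1 1, 1585 genes passed. AngII and saline libraries did not overlap for 4012 genes (33.7%), of which 2128 were higher with AngII (17.9%) and 1884 lower (15.8%). Over all genes tested the median log2 difference, AngII minus saline on the log2(FPKM + 1) scale, was 0.001. The calls depended on single libraries: without AngII 2, AngII 3, saline 1 or saline 3 no gene passed in the limma test, although 3696, 3130, 2050 and 1999 genes had an unadjusted p under 0.05. Without AngII 1, 60 genes passed. Those losses hold for every count of called genes below and are not repeated. In the fit with median-ratio scaling 176 genes were higher and 171 lower, and in the fit of the AngII and saline libraries alone 162 were higher and 103 lower.

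For each of the 370 genes, the difference between AngII and saline 2 can be set beside that between AngII and the mean of saline 1 and 3. The first was a median of 61.6% of the second (quartiles 49.5% and 77.5%). Saline 2 thus lay between the AngII libraries and the other saline libraries for most called genes. For the 4522 genes called without saline 2 the median was 26.8%, and 1037 of them kept 10% or less, which places saline 2 with the AngII libraries for those genes. Of the 370, 0 kept 10% or less. Saline 2 was in the fit that called the 370, and a saline 2 near AngII works against a call there. Both medians therefore partly reflect how the genes were chosen.

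**Figure D1:**
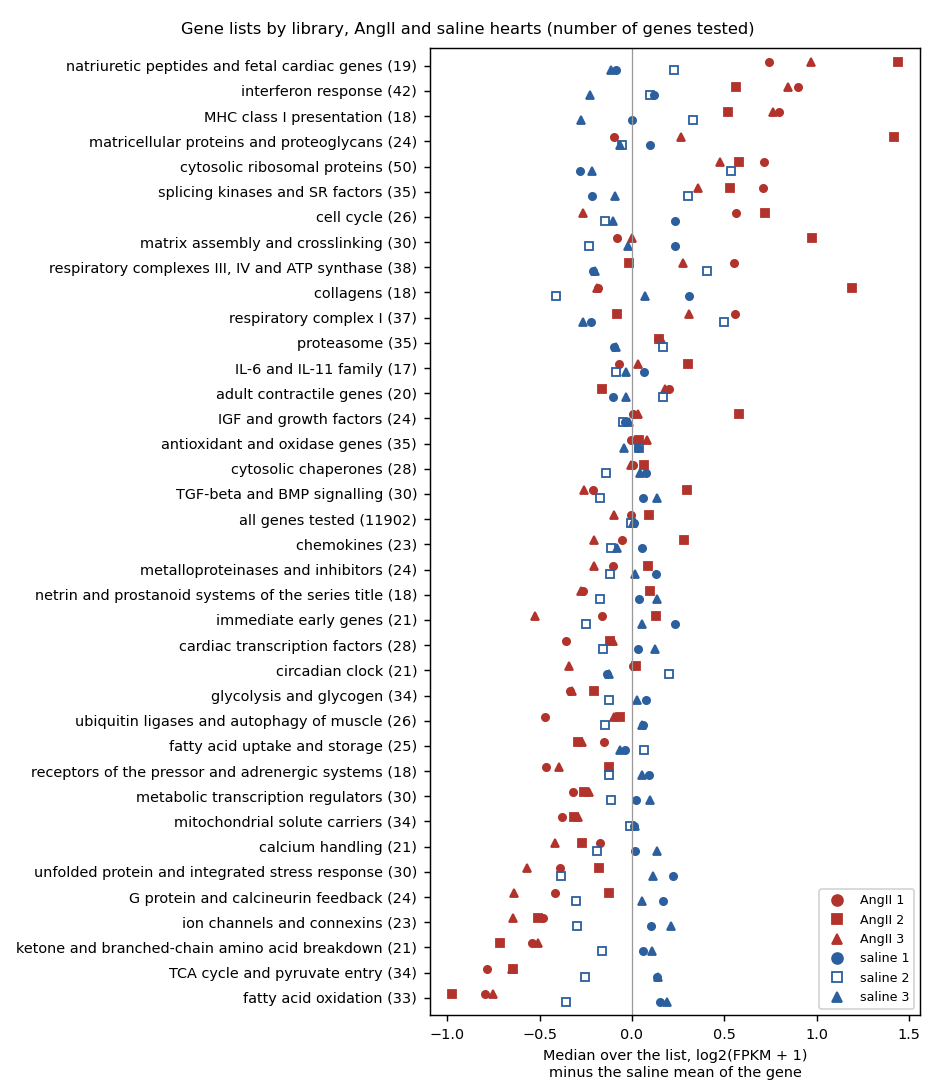
Each row is a gene list with its number of tested genes, and each point is the median over the list, in 1 library, of log2(FPKM + 1) minus the mean of that gene over the saline libraries. Red points are AngII 1 to 3, blue points saline 1 to 3, and the open square is saline 2. Fatty acid oxidation lies lowest, with a median log2 difference of -0.88, and natriuretic and fetal cardiac genes highest, with 0.94; the open square lies near the red points for ribosomal proteins and complex I.

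Fuel oxidation held the broadest decrease. Of 33 genes of fatty acid oxidation, 15 fell with AngII and none rose, against 1.80% of all genes lower, and the median log2 difference of the list was -0.88 (-0.92 without saline 2, when 23 fell and 1 rose). Of 34 genes of the tricarboxylic acid (TCA) cycle and pyruvate entry, 11 fell and none rose, with a median of -0.74 (-0.98 without saline 2, when 23 fell). Of 21 genes of ketone and branched-chain amino acid breakdown, 5 fell and none rose, with a median of -0.63 (-0.66 without saline 2, when 12 fell and 1 rose). In 24 of 33, 25 of 34 and 15 of 21 genes of these lists every AngII library lay below every saline library, against 15.8% of all genes. Between AngII and saline 2 the medians of these lists, in the same order, were -0.571, -0.444 and -0.384. Between saline 2 and the mean of saline 1 and 3 they were -0.535, -0.38 and -0.243. Much of each decrease was therefore also seen within the saline group.

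Hadha, the alpha subunit of the mitochondrial trifunctional protein that carries out the last steps of long-chain beta-oxidation, had 159.96, 148.83 and 163.12 FPKM in the AngII libraries, against 529.34, 312.53 and 543.25 FPKM in the saline libraries. The 3 AngII libraries lay close together and all below saline 2, the lowest saline library (log2 difference -1.50, SE 0.23, limma adjusted p = 0.0332). Its partner subunit Hadhb had 295.17, 345.17 and 344.56 FPKM with AngII, against 981.36, 604.66 and 1050.5 FPKM with saline, with the same order of libraries (log2 difference -1.38, SE 0.22, limma adjusted p = 0.0375). Acadm, the medium-chain acyl-CoA dehydrogenase, had 183.41, 197.03 and 229.61 FPKM in AngII hearts, against 552.49, 361.16 and 560.43 FPKM in saline hearts. All AngII libraries were below all saline libraries (log2 difference -1.25, SE 0.20, limma adjusted p = 0.0375). Lack of overlap was a condition for naming Hadhb and Acadm, so for them it is no separate result.

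Hadh, which oxidizes medium- and short-chain hydroxyacyl-CoA, had 189.35, 187.28 and 209.32 FPKM in the AngII libraries, against 527.85, 359.11 and 533.44 FPKM in the saline libraries (log2 difference -1.25, SE 0.20, limma adjusted p = 0.0375). Etfa, a subunit of the flavoprotein that passes electrons from the acyl-CoA dehydrogenases to the respiratory chain, had 65.7, 92.11 and 77.34 FPKM with AngII, against 303.16, 155.79 and 313.99 FPKM with saline (log2 difference -1.65, SE 0.26, limma adjusted p = 0.0366). Acot1, an acyl-CoA thioesterase with a near-identical neighbour whose reads could be shared, had 3.5, 1.49 and 3.55 FPKM in AngII hearts, against 15.5, 8.73 and 17.96 FPKM in saline hearts (log2 difference -1.97, SE 0.32, limma adjusted p = 0.0375). Every AngII library of these genes lay below saline 2, which was in turn below saline 1 and 3. The other 9 members that fell were Crat, Acads, Acad11, Acad12, Echs1, Eci2, Etfdh, Acsl1 and Mlycd, which cover activation, carnitine acetyl transfer, dehydrogenation and electron transfer.

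In the TCA cycle, Sdha, the flavoprotein subunit of succinate dehydrogenase, had 138.25, 159.23 and 175.83 FPKM in the AngII libraries, against 565.5, 262.83 and 565.79 FPKM in the saline libraries (log2 difference -1.47, SE 0.28, limma adjusted p = 0.0411). Suclg1, the alpha subunit of succinate-CoA ligase, had 173.36, 141.98 and 147.6 FPKM with AngII, against 315.5, 251.88 and 299.91 FPKM with saline (log2 difference -0.90, SE 0.16, limma adjusted p = 0.0403). Mdh1, the cytosolic malate dehydrogenase of the malate-aspartate shuttle, had 491.06, 596 and 557.82 FPKM in AngII hearts, against 1078.2, 841.48 and 1097.8 FPKM in saline hearts (log2 difference -0.87, SE 0.18, limma adjusted p = 0.0435). No AngII library of these 3 genes reached the lowest saline library. Saline 2 lay near the other saline libraries for Suclg1, about midway for Mdh1 and nearer to AngII for Sdha. Pdp2, a phosphatase that activates pyruvate dehydrogenase, had 4.59, 2.99 and 3.46 FPKM in the AngII libraries, against 8.38, 6.59 and 8.8 FPKM in the saline libraries (log2 difference -0.94, SE 0.18, limma adjusted p = 0.0411). Suclg2, Sdhc, Sdhd, Got1, Pdhb and Dlat also fell, as did Pdk4, the kinase that inhibits pyruvate dehydrogenase. Activating and inhibiting enzymes of pyruvate entry were therefore both lower. Pdk4, whose values were picked after they were seen, had 26.89, 28.58 and 29.86 FPKM with AngII, against 174.38, 68.23 and 179.57 FPKM with saline.

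Of the amino acid and ketone enzymes, Acat1, the mitochondrial acetoacetyl-CoA thiolase, had 98.32, 87.48 and 97.26 FPKM in AngII hearts, against 182.75, 151.67 and 180.73 FPKM in saline hearts (log2 difference -0.85, SE 0.14, limma adjusted p = 0.0392). Auh, which acts in leucine breakdown, had 34.41, 39.6 and 38.12 FPKM in the AngII libraries, against 67.79, 57.81 and 71.78 FPKM in the saline libraries (log2 difference -0.80, SE 0.14, limma adjusted p = 0.0403). Pcca, a subunit of propionyl-CoA carboxylase, had 17.91, 18.94 and 22.13 FPKM with AngII, against 36.76, 30.75 and 34.04 FPKM with saline (log2 difference -0.76, SE 0.15, limma adjusted p = 0.0411). In all 3 the saline libraries, saline 2 included, stood together above the AngII libraries. Mccc2 (log2 difference -0.78, limma adjusted p = 0.0411) and Mccc1, the subunits of methylcrotonyl-CoA carboxylase, also fell.

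**Figure D2:**
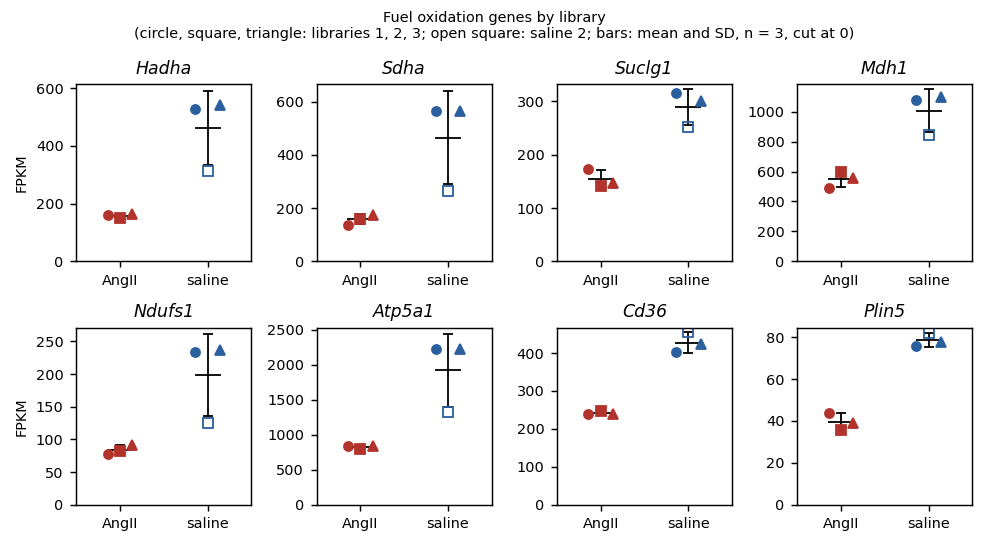
FPKM of 8 genes of fuel oxidation, transport and storage in each library, AngII on the left of each panel and saline on the right; points are libraries, the open square is saline 2, and bars give mean and SD (n = 3). Every AngII library lies below every saline library; saline 2 lies between for Hadha, Sdha, Ndufs1 and Atp5a1 and with the other saline libraries for Cd36 and Plin5.

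Uptake and storage of fatty acids changed less broadly, with 3 of 25 genes lower, none higher and a median log2 difference of -0.25 (without saline 2, 1 higher and 6 lower). Of all genes 1.80% were called lower. The fatty acid transporter Cd36 had 240.38, 248.19 and 239.27 FPKM in AngII hearts, against 402.39, 455.68 and 424.62 FPKM in saline hearts (log2 difference -0.81, SE 0.14, limma adjusted p = 0.0392). Plin5, which coats lipid droplets beside mitochondria, had 43.85, 35.89 and 38.84 FPKM in the AngII libraries, against 75.78, 82.12 and 77.61 FPKM in the saline libraries (log2 difference -0.98, SE 0.19, limma adjusted p = 0.0411). For both genes saline 2 was the highest of all libraries, so their decrease did not follow the side on which saline 2 lay. Angptl4, an inhibitor of lipoprotein lipase, had 4.48, 4.64 and 2.52 FPKM with AngII, against 11.47, 9.24 and 10.88 FPKM with saline (log2 difference -1.27, SE 0.25, limma adjusted p = 0.0411). Ucp3, a mitochondrial carrier tied to fatty acid use in muscle, had 18.92, 11.32 and 11.83 FPKM in AngII hearts, against 28.92, 40.14 and 33.52 FPKM in saline hearts (log2 difference -1.25, SE 0.22, limma adjusted p = 0.0403), again with saline 2 highest.

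The respiratory chain did not move as a whole. Of 37 complex I genes 2 fell and none rose, while 30 had a positive difference and the median was 0.25. Of 38 genes of complexes III, IV and ATP synthase 4 fell and none rose, while 27 were positive and the median was 0.27. Ndufs1, the largest subunit of complex I, had 77.05, 82.26 and 91.31 FPKM in the AngII libraries, against 233.16, 125.56 and 236.4 FPKM in the saline libraries (log2 difference -1.18, SE 0.23, limma adjusted p = 0.0411). Atp5a1, the alpha subunit of ATP synthase, had 847.15, 803.54 and 841.06 FPKM with AngII, against 2228.7, 1320.2 and 2226.1 FPKM with saline (log2 difference -1.17, SE 0.23, limma adjusted p = 0.0412). Uqcrfs1, the Rieske iron-sulphur protein of complex III, had 278.33, 272.76 and 239.13 FPKM in AngII hearts, against 621.12, 413.52 and 608.53 FPKM in saline hearts (log2 difference -1.03, SE 0.19, limma adjusted p = 0.0411). These 3 genes were lower in each AngII library while most other subunits had differences above 0. Ndufv1 (log2 difference -0.72, limma adjusted p = 0.0473), Atp5f1 (log2 difference -1.002, limma adjusted p = 0.0403) and Atp5b (log2 difference -0.95, limma adjusted p = 0.0481) also fell.

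Transcript length moved with that split. The 2 lower complex I genes had a median longest transcript of 2161 bases, against 1046 bases over the list, and the 4 lower genes of the other complexes one of 2221 bases, against 930. Of 5 bins of genes by length, the shortest (154 to 1945 bases) had a median log2 difference of 0.22 and the longest (5206 bases and more) one of -0.07. The same bins differed by 0.28 and -0.13 between saline 2 and the mean of saline 1 and 3, and by -0.005 and 0.038 between AngII and saline 2. After a correction for length and GC content, chosen after the data were seen, the median of complexes III, IV and ATP synthase was -0.08. The corrected medians of the other lists are not given here. Within the other lists the called genes were also the longer ones: the 15 lower fatty acid oxidation genes had a median of 3740 bases, against 2895 over the list, and the 11 lower TCA genes one of 2900 bases, against 2608. Spearman's rho of length with the log2 difference, across genes that are not independent replicates, was -0.33 in fatty acid oxidation, -0.29 in the TCA cycle, -0.30 in complex I and -0.43 in the other complexes. The part of length in these lists was not tested beyond that correction.

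Without saline 2, 12 complex I genes were called higher and 3 lower, and 13 genes of the other complexes higher and 7 lower, against 17.9% of all genes higher and 20.1% lower in that fit. The lower counts are no larger a share than that over all genes. The higher counts, 12 of 37 and 13 of 38, are larger shares than the 17.9% over all genes. Complex I genes were a median of 0.22 lower on the log2 scale with AngII than in saline 2, and 0.75 higher in saline 2 than in saline 1 and 3.

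Other parts of energy metabolism showed single genes. The share of all genes called lower was 1.80%. Of 34 genes of glycolysis and glycogen 2 fell (without saline 2, 5 higher and 13 lower): Pfkm, the muscle phosphofructokinase, with 158.36, 176.84 and 175.11 FPKM in the AngII libraries, against 442.88, 255.4 and 444.87 FPKM in the saline libraries (log2 difference -1.12, SE 0.22, limma adjusted p = 0.042), and Ldhd, the D-lactate dehydrogenase (log2 difference -0.75, limma adjusted p = 0.0411). Of 34 mitochondrial solute carriers 3 fell (without saline 2, 1 higher and 13 lower), Ucp3 among them, with Slc25a13, the aspartate-glutamate carrier (log2 difference -0.86, limma adjusted p = 0.0459), and Slc25a22, a glutamate carrier (log2 difference -0.70, limma adjusted p = 0.0471). Among 30 metabolic transcription regulators 1 passed, near the 3.11% of all genes called (without saline 2, 1 higher and 12 lower). This was Prkag1, a subunit of AMP-activated protein kinase, with 42.32, 45.58 and 43.14 FPKM with AngII, against 66.15, 62.33 and 70.62 FPKM with saline (log2 difference -0.59, SE 0.13, limma adjusted p = 0.0453). The nuclear receptor gene Esrra had 83.82, 70.95 and 78.1 FPKM in AngII hearts, against 76, 85.27 and 77.99 FPKM in saline hearts, which overlapped. Perm1, a muscle regulator of mitochondrial genes, had 46.79, 41.86 and 55.5 FPKM in the AngII libraries, against 118.92, 56.92 and 119.52 FPKM in the saline libraries, and did not pass (log2 difference -0.95, SE 0.31, limma adjusted p = 0.0802), but passed without saline 2 (log2 difference -1.30, limma adjusted p = 0.00637).

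Cardiomyocyte genes of growth and stress had the highest median of the pathway lists with more than 1 tested gene. Of 19 natriuretic peptide and fetal cardiac genes 4 rose, none fell and 16 had a positive difference, with a median of 0.94 (0.96 without saline 2, when 9 rose), against 1.31% of all genes higher. Myl1, a myosin light chain of fetal heart and fast skeletal muscle, had 134.33, 175.7 and 162.87 FPKM with AngII, against 46.99, 41.18 and 30.01 FPKM with saline. Saline 2 lay among the other saline libraries (log2 difference 1.99, SE 0.23, limma adjusted p = 0.0178). Ankrd1, a stretch-responsive repressor protein of the sarcomere and nucleus, had 1162.5, 2968.1 and 2663.2 FPKM in AngII hearts, against 532.09, 716.25 and 557.32 FPKM in saline hearts (log2 difference 1.81, SE 0.39, limma adjusted p = 0.0453). Xirp2, an actin-binding protein of the intercalated disc, had 68.21, 168.86 and 123.12 FPKM in the AngII libraries, against 22.12, 32.71 and 26.19 FPKM in the saline libraries (log2 difference 2.04, SE 0.44, limma adjusted p = 0.0453). AngII 1 was the lowest AngII library for all 3 genes and still lay above every saline library. Actn1, the non-muscle alpha-actinin, had 25.56, 39.17 and 22.59 FPKM with AngII, against 10.93, 14.57 and 10.98 FPKM with saline (log2 difference 1.17, SE 0.21, limma adjusted p = 0.0403).

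Among the classical readouts of hypertrophy, Nppa and Myh7 had the larger differences and a wide spread. Nppa, the atrial natriuretic peptide gene, had 1390.5, 10009 and 10903 FPKM in AngII hearts, against 168.31, 632.1 and 84.78 FPKM in saline hearts. Myh7, the fetal myosin heavy chain, had 99.27, 688.2 and 1689.6 FPKM in the AngII libraries, against 12.44, 54.47 and 14.93 FPKM in the saline libraries. In both, AngII 1 was several times lower than AngII 2 and 3, and saline 2 was the highest saline library. Neither passed with all libraries (log2 difference 4.67, SE 1.16, limma adjusted p = 0.0555 for Nppa and log2 difference 4.42, SE 1.03, limma adjusted p = 0.0503 for Myh7), and both passed without saline 2 (log2 difference 5.47, limma adjusted p = 0.0105 and log2 difference 5.06, limma adjusted p = 0.0098). Nppb, the B-type peptide gene, had 641.84, 1015.4 and 684.8 FPKM with AngII, against 369.76, 274.83 and 243.47 FPKM with saline, without overlap and short of the threshold (log2 difference 1.39, SE 0.47, limma adjusted p = 0.0859). Acta1, the skeletal alpha-actin expressed in fetal heart, had 1320.6, 2644.1 and 2268.2 FPKM in AngII hearts, against 592.08, 546.91 and 541.15 FPKM in saline hearts (log2 difference 1.83, SE 0.90, limma adjusted p = 0.17). The adult myosin gene Myh6 overlapped, with 6262.3, 4333.6 and 4396.4 FPKM in the AngII libraries, against 5239.1, 6033.5 and 5552.6 FPKM in the saline libraries (log2 difference -0.19, SE 0.23, limma adjusted p = 0.573).

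Adult contractile genes held 3 that fell and none that rose among 20, while without saline 2 there were 6 called higher and 4 lower. All 3 are kinases: Mylk3, the cardiac myosin light chain kinase, with 47.35, 50.05 and 60.05 FPKM with AngII, against 174.26, 78.87 and 179.22 FPKM with saline (log2 difference -1.36, SE 0.29, limma adjusted p = 0.0453); Mylk4, a related kinase (log2 difference -1.88, limma adjusted p = 0.0453); and Tnni3k, which binds cardiac troponin I (log2 difference -0.87, limma adjusted p = 0.0468). In calcium handling 1 of 21 genes passed (without saline 2, 2 higher and 8 lower). This was Atp2a2, which encodes SERCA2, the pump that returns calcium to the sarcoplasmic reticulum, with 581.08, 648.84 and 546.88 FPKM in AngII hearts, against 3500.4, 1102.1 and 3723.3 FPKM in saline hearts (log2 difference -2.04, SE 0.44, limma adjusted p = 0.0453). Saline 2 lay much nearer to the AngII libraries than to saline 1 and 3, and the difference without it was -2.61. Phospholamban (Pln), the inhibitor of that pump, had 1164.5, 1303.9 and 1555 FPKM in the AngII libraries, against 2057.9, 1961 and 2425.8 FPKM in the saline libraries and did not pass (log2 difference -0.68, SE 0.20, limma adjusted p = 0.0712), but passed without saline 2 (log2 difference -0.75, limma adjusted p = 0.0217). The calcium list as a whole had a median of -0.35, while AngII minus saline 2 had one of 0.01.

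Ion channels and connexins had differences below 0 in 20 of 23 genes, with a median of -0.58 (-0.76 without saline 2, when 12 fell). The list differed by a median of -0.265 between AngII and saline 2, and by -0.449 between saline 2 and the mean of saline 1 and 3. With all libraries 2 fell, against 1.80% of all genes. Scn4b, a beta subunit of the cardiac sodium channel, had 2.04, 1.78 and 1.76 FPKM with AngII, against 9.62, 4.96 and 8.19 FPKM with saline (log2 difference -1.55, SE 0.27, limma adjusted p = 0.0393). Abcc9, the sulphonylurea receptor subunit of potassium channels in heart and pericytes, had 20.87, 22.39 and 15.99 FPKM in AngII hearts, against 56.99, 33.69 and 56.53 FPKM in saline hearts (log2 difference -1.25, SE 0.22, limma adjusted p = 0.0403). Neither gene overlapped between groups, and saline 2 was the lowest saline library of both.

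Of 18 receptors of the pressor and adrenergic systems 2 fell and none rose, against 1.80% of all genes lower (without saline 2, 7 lower). Agtr1a, the type 1a angiotensin receptor, had 10.17, 11.44 and 12.88 FPKM in the AngII libraries, against 19.23, 17.53 and 23.15 FPKM in the saline libraries. The groups did not overlap, and saline 2 was the lowest saline library (log2 difference -0.74, SE 0.16, limma adjusted p = 0.0453). Adra1b, an alpha-1 adrenergic receptor, had 4.3, 3.34 and 3.71 FPKM with AngII, against 18.06, 7.22 and 19.19 FPKM with saline (log2 difference -1.62, SE 0.36, limma adjusted p = 0.0468). Downstream, 2 of 24 genes of G protein and calcineurin feedback fell, against 1.80% of all genes (without saline 2, 3 higher and 10 lower). That list differed by a median of -0.143 between AngII and saline 2, and by -0.454 between saline 2 and the mean of saline 1 and 3. Rgs2, which shortens signals of Gq-coupled receptors, had 6.14, 4.84 and 4.77 FPKM in AngII hearts, against 17.46, 13.52 and 24.79 FPKM in saline hearts (log2 difference -1.61, SE 0.28, limma adjusted p = 0.0392). Dusp1, a phosphatase of mitogen-activated protein kinases, had 37.96, 30.49 and 16.34 FPKM in the AngII libraries, against 97.34, 55.36 and 75.56 FPKM in the saline libraries (log2 difference -1.44, SE 0.29, limma adjusted p = 0.042). Of 28 cardiac transcription factors 1 passed, near the 3.11% of all genes called. This was Hopx, a homeodomain-only protein of the heart, with 137.51, 77.73 and 98.04 FPKM with AngII, against 220.08, 213.2 and 222.43 FPKM with saline (log2 difference -1.10, SE 0.22, limma adjusted p = 0.042). Without saline 2, 3 of those factors were called higher and 7 lower.

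**Figure D3:**
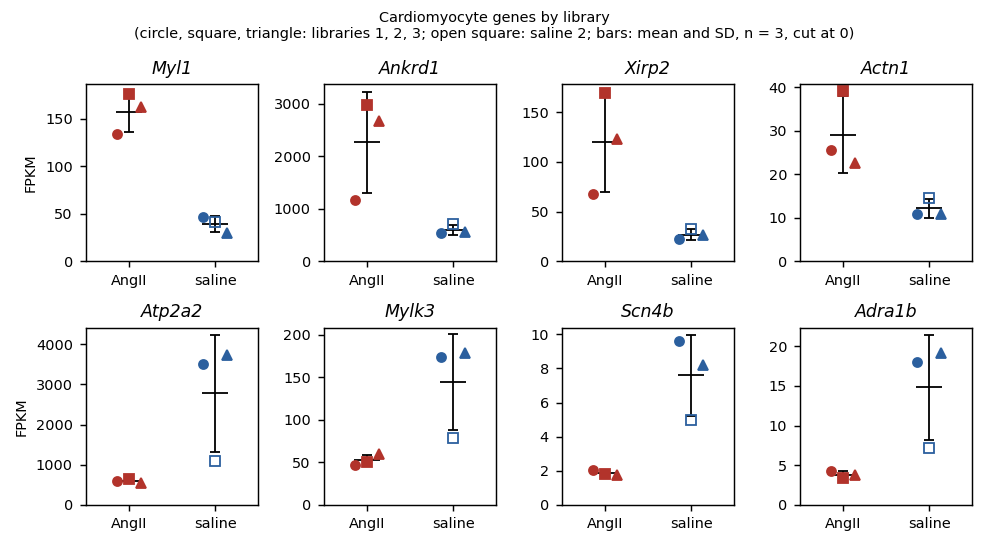
FPKM of 8 cardiomyocyte genes in each library, AngII on the left of each panel and saline on the right; points are libraries, the open square is saline 2, and bars give mean and SD (n = 3). The upper 4 genes are higher in every AngII library and the lower 4 lower; saline 2 lies between the other saline libraries and AngII for Atp2a2, Mylk3 and Adra1b.

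Matrix genes rose in a few members, with AngII 2 far above the other AngII libraries. Of 24 matricellular proteins and proteoglycans 2 rose and none fell, and the median was 0.63 (without saline 2, 7 higher and 3 lower); within AngII libraries it was -0.10, 1.42 and 0.27 relative to the saline mean. Postn, a matricellular protein of activated fibroblasts, had 37.81, 455.92 and 89.91 FPKM in AngII hearts, against 8.87, 10.82 and 6.54 FPKM in saline hearts (log2 difference 3.61, SE 0.79, limma adjusted p = 0.0453). Thbs4, a thrombospondin of stressed muscle, had 6.99, 92.19 and 20.4 FPKM in the AngII libraries, against 1.18, 2.02 and 1.1 FPKM in the saline libraries (log2 difference 3.39, SE 0.74, limma adjusted p = 0.0453). Even the lowest AngII library exceeded every saline library for both genes. Of 24 metalloproteinases and inhibitors 2 rose (without saline 2, 3 higher and 6 lower): Timp1, an inhibitor of matrix metalloproteinases, with 12.48, 59.49 and 15.96 FPKM with AngII, against 3.72, 4.33 and 2.59 FPKM with saline (log2 difference 2.42, SE 0.53, limma adjusted p = 0.0453), and Mmp23 (log2 difference 1.18, limma adjusted p = 0.0495). Of 30 genes of matrix assembly 1 rose and none fell, near the 3.11% of all genes called in either direction (without saline 2, 6 higher and 2 lower). This was the lysyl oxidase-like gene Loxl3, with 3.6, 12.36 and 7.29 FPKM in AngII hearts, against 1.59, 2.74 and 1.59 FPKM in saline hearts (log2 difference 1.45, SE 0.33, limma adjusted p = 0.0471).

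None of 18 collagen genes passed (without saline 2, 1 higher and 1 lower), and the median of 0.26 came to -0.08 without AngII 2. Within AngII libraries the collagen median was -0.18, 1.19 and -0.19 relative to the saline mean. Col1a1, a chain of fibrillar collagen I, had 56.41, 375.52 and 124.72 FPKM in the AngII libraries, against 57.56, 36.45 and 48.92 FPKM in the saline libraries (log2 difference 1.54, SE 0.57, limma adjusted p = 0.0992). Col3a1 had 55.37, 352.42 and 100.83 FPKM with AngII, against 93.95, 43.74 and 74.83 FPKM with saline (log2 difference 0.88, SE 0.57, limma adjusted p = 0.28). AngII 1 lay within the saline range for both chains, so the groups overlapped. The collagen chaperone Serpinh1 had 133.72, 215.4 and 87.98 FPKM in AngII hearts, against 203.26, 93.35 and 174.78 FPKM in saline hearts, also with overlap. In TGF-beta and BMP signalling 1 of 30 genes passed, near the 3.11% of all genes called (without saline 2, 7 higher and 7 lower, near the 17.9% and 20.1% of all genes). This was the ligand gene Bmp6, with 8.8, 9.6 and 7.26 FPKM in the AngII libraries, against 18.2, 16.63 and 14.2 FPKM in the saline libraries (log2 difference -0.86, SE 0.18, limma adjusted p = 0.0453).

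Interferon-response genes moved together. Of 42 genes 8 rose, none fell and 40 had a positive difference, with a median of 0.73 (0.77 without saline 2, when 21 rose), against 1.31% of all genes higher. In 28 of 42 every AngII library exceeded every saline library, against 17.9% of all genes. Interferons act through cell surface receptors, and many of their target genes carry an interferon-stimulated response element (ISRE) near the start.

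Promoter sequences were available for 32 genes of that list from RefSeq on GRCm38.p6, a later build than the mm9 named for the deposited data. Each window runs from 250 bases before to 50 bases after the gene start, in the direction of transcription. The letters GAAANNGAAA were searched on both strands as a simple form of the ISRE. They were present in 16 of the 32 genes (50%), against 3.99% of 27025 genes with promoters and 3.70% of the 9483 among the genes tested. The genes were listed as interferon-response genes, so this share describes the list and not an effect of AngII. Over all genes called higher the share was 9 of 121 (7.44%), and over genes called lower 5 of 172 (2.91%). The 3 windows printed here belong to genes of the list that rose and hold the letters, which are in capitals, with overlapping matches joined. Those of Ifit1 and Ifit3 lie on the reverse strand and appear as TTTC pairs, and that of Oas1g lies on the forward strand, close to the start. The windows are chr19:34640639-34640938 on the plus strand for Ifit1, chr19:34583279-34583578 on the plus strand for Ifit3 and chr5:120887564-120887863 on the minus strand for Oas1g.
Ifit1: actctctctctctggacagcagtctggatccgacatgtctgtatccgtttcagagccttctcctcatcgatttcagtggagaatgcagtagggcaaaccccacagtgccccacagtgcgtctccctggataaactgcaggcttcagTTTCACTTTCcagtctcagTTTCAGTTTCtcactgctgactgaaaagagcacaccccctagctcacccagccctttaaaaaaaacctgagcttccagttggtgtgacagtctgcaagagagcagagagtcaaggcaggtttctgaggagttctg
Ifit3: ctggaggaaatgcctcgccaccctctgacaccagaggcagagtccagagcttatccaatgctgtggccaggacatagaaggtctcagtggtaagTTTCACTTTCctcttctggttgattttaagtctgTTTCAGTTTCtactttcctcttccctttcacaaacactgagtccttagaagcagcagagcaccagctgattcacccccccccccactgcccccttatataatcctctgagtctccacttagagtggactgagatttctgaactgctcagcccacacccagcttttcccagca
Oas1g: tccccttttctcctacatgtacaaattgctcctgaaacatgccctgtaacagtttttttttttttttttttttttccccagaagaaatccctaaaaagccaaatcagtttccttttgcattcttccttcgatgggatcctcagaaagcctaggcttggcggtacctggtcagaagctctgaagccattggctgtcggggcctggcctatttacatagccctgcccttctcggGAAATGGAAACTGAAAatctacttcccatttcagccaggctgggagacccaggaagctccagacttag
No match was found in these windows for Irf7, Oasl2, Ifi35 and Ifi44, which also rose. A match describes letters only and does not show binding.

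Ifit1, an RNA-binding antiviral effector, had 17.66, 10.73 and 24.9 FPKM with AngII, against 3.06, 3.6 and 1.95 FPKM with saline (log2 difference 2.23, SE 0.41, limma adjusted p = 0.0403). Irf7, the transcription factor that amplifies interferon production, had 51.07, 32.78 and 57.45 FPKM in AngII hearts, against 18.6, 18.49 and 10.73 FPKM in saline hearts (log2 difference 1.51, SE 0.29, limma adjusted p = 0.0411). Ifi27l2a, an interferon-induced membrane protein, had 169.51, 137.87 and 156.11 FPKM in the AngII libraries, against 57.95, 70.52 and 39.38 FPKM in the saline libraries (log2 difference 1.48, SE 0.22, limma adjusted p = 0.0332). Oasl2, a relative of the oligoadenylate synthetases, had 36.19, 30.04 and 25.56 FPKM with AngII, against 16.84, 18.58 and 13.79 FPKM with saline (log2 difference 0.86, SE 0.19, limma adjusted p = 0.0453). Every AngII library of these 4 genes was above every saline library, and saline 2 lay near saline 1. Ifit3 (log2 difference 1.63), Ifi44 (1.19), Ifi35 (1.03) and Oas1g (0.82) rose as well. Ifit3 and Oas1g each have a near-identical copy, Ifit3b and Oas1a, that could share their reads. Isg15, a ubiquitin-like modifier looked up after the other values were seen, did not pass, with 30.78, 23.33 and 16.16 FPKM in AngII hearts, against 13.94, 11.43 and 7.44 FPKM in saline hearts, without overlap, but was called higher without saline 2 (log2 difference 1.08, limma adjusted p = 0.0385). None of 18 genes of MHC class I presentation passed, while 14 were positive with a median of 0.70; without saline 2, 7 were called higher and 2 lower, with a median of 0.87. B2m, the light chain of class I, had 910.56, 900.7 and 896.72 FPKM in the AngII libraries, against 517.13, 670.39 and 399.64 FPKM in the saline libraries (log2 difference 0.80, SE 0.30, limma adjusted p = 0.104). It passed without saline 2 (log2 difference 0.99, limma adjusted p = 0.0355).

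Chemokine genes rose in 4 of 23, none fell, and the median of the list was -0.03 (without saline 2, 5 higher and 3 lower). Of all genes 1.31% were called higher. Ccl8, a ligand that attracts monocytes, had 9.52, 15.16 and 15.73 FPKM with AngII, against 1.03, 1.3 and 0.99 FPKM with saline. All 3 saline libraries were alike and near 1 FPKM (log2 difference 2.75, SE 0.35, limma adjusted p = 0.0178). Ccl12, a ligand of the receptor Ccr2 in mice, had 11.04, 12.16 and 14.95 FPKM in AngII hearts, against 3.25, 3.08 and 2.14 FPKM in saline hearts (log2 difference 1.85, SE 0.37, limma adjusted p = 0.0411). Ccr2, the receptor of inflammatory monocytes, had 1.41, 3.65 and 3.26 FPKM in the AngII libraries, against 0.51, 0.92 and 0.59 FPKM in the saline libraries (log2 difference 1.12, SE 0.25, limma adjusted p = 0.0453). Ccl5, a chemokine of T cells, had 8.85, 10.43 and 15.52 FPKM with AngII, against 0.49, 5.28 and 0.81 FPKM with saline (log2 difference 2.26, SE 0.48, limma adjusted p = 0.0453). Saline 2 lay close to the other saline libraries for Ccl8, Ccl12 and Ccr2 and well above them for Ccl5. In the interleukin 6 and 11 family 1 of 17 genes rose (without saline 2, 2 higher and 4 lower): Il11, a cytokine that acts on fibroblasts, with 3.53, 2.95 and 5.4 FPKM in AngII hearts, against 0.14, 1.38 and 0.55 FPKM in saline hearts (log2 difference 1.59, SE 0.30, limma adjusted p = 0.0411).

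Markers of immune cells were checked beside these genes. The share of all genes called higher was 1.31%. Of 24 macrophage and monocyte markers 4 rose, namely Ccr2, Trem2, Lgals3 and Plac8 (without saline 2, 6 higher and 3 lower), while the summed level of the list was 607, 901 and 697 FPKM with AngII, against 741, 493 and 638 FPKM with saline. Trem2, a receptor of lipid-handling macrophages, had 5.34, 16.63 and 8.98 FPKM in the AngII libraries, against 2.31, 3.33 and 1.57 FPKM in the saline libraries (log2 difference 1.64, SE 0.33, limma adjusted p = 0.042). Lgals3, galectin-3, had 7.82, 23.93 and 19.46 FPKM with AngII, against 3.69, 5.1 and 2.12 FPKM with saline (log2 difference 1.89, SE 0.40, limma adjusted p = 0.0453). Single markers thus rose while the sum over the list overlapped between groups. Of the 20 markers of T, B and NK cells listed, 4 were tested; Cd52, a surface protein of lymphocytes and monocytes, had 46.27, 58.08 and 45.13 FPKM in AngII hearts, against 16.86, 17 and 15.61 FPKM in saline hearts (log2 difference 1.53, SE 0.16, limma adjusted p = 0.0178), and Nkg7 of cytotoxic cells had 2.22, 2.43 and 1.73 FPKM in the AngII libraries, against 0.52, 0.59 and 0.26 FPKM in the saline libraries (log2 difference 1.10, SE 0.18, limma adjusted p = 0.0375). The T cell marker Cd3e, looked up afterwards, was at 0.38, 0.7 and 0.53 FPKM with AngII, against 0.12, 0.17 and 0.14 with saline, under the filter. The B cell marker Cd79a, looked up with it, overlapped, with 1.75, 0.81 and 0.75 FPKM with AngII, against 0.69, 1.79 and 0.83 FPKM with saline. Csf3r, the receptor for granulocyte colony-stimulating factor, rose (log2 difference 0.83, limma adjusted p = 0.0411). It was the 1 call among 4 neutrophil markers tested (without saline 2, 2 higher and none lower). S100a9, another of them, overlapped, with 1.65, 0.86 and 2.47 FPKM with AngII, against 1.84, 0.95 and 1.24 FPKM with saline (log2 difference 0.15). In bulk tissue, more cells of a type and more RNA per cell cannot be told apart. The part of cell numbers in the chemokine and interferon results was not tested.

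**Figure D4:**
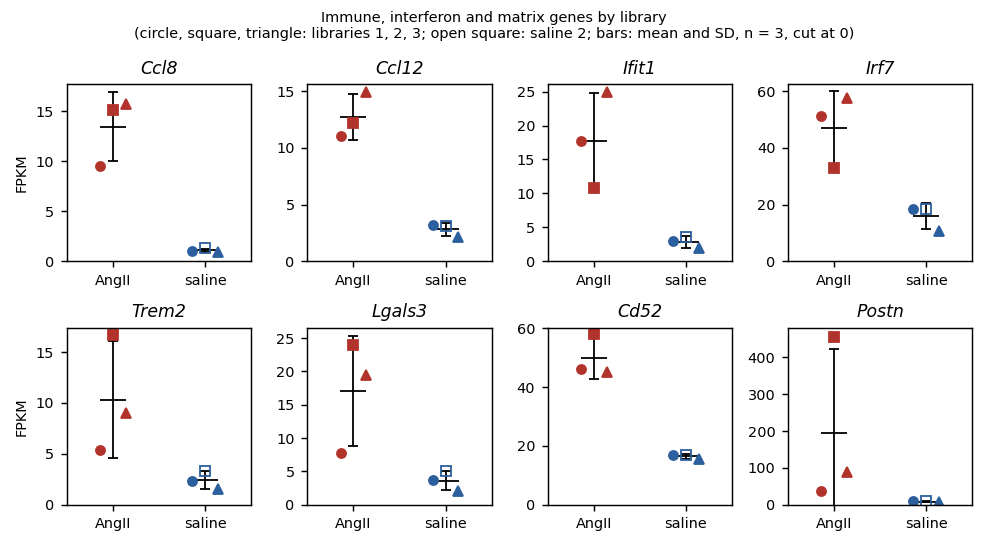
FPKM of 8 immune, interferon and matrix genes in each library, AngII on the left of each panel and saline on the right; points are libraries, the open square is saline 2, and bars give mean and SD (n = 3). Every AngII library exceeds every saline library; the AngII libraries of Cd52 lie between 45.13 and 58.08 FPKM, while Postn spans 37.81 to 455.92.

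Other cell types were followed by the summed FPKM of their markers. Cardiomyocyte markers summed to 81344, 57262 and 75034 FPKM with AngII, against 56384, 80341 and 56197 with saline, and none of 10 passed (without saline 2, 2 higher and 2 lower). The heart label thus stood with abundant cardiac genes in all libraries. Fibroblast markers summed to 966, 1915 and 1113 FPKM, against 1374, 1181 and 1209, and endothelial markers to 3732, 2432 and 1666 FPKM, against 1948, 3558 and 1804. Each sum overlapped between groups. Without saline 2, 1 of 16 fibroblast markers was called higher and 2 lower, and 2 of 18 endothelial markers higher and 4 lower. Among fibroblast markers Gsn, the actin-severing protein gelsolin, fell, with 294.34, 201.97 and 220.15 FPKM with AngII, against 610.84, 496.12 and 565.01 FPKM with saline (log2 difference -1.23, SE 0.18, limma adjusted p = 0.0332). Among endothelial markers the water channel Aqp1 fell, with 77.92, 53.18 and 44.32 FPKM in AngII hearts, against 176.77, 130.85 and 192.1 FPKM in saline hearts (log2 difference -1.52, SE 0.23, limma adjusted p = 0.0332).

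Smooth muscle and pericyte markers summed to 2274, 3786 and 5062 FPKM with AngII, against 1710, 1894 and 1533 with saline. These sums did not overlap, but 8 of the 16 markers had a positive and 8 a negative difference, with a median of 0.05, so the sum does not stand for the list. Of the 16, 1 rose and 1 fell (without saline 2, 5 higher and 2 lower): Cnn1, the smooth muscle calponin, with 6.4, 7.36 and 5.5 FPKM in the AngII libraries, against 1.12, 1.52 and 0.61 FPKM in the saline libraries (log2 difference 1.85, SE 0.30, limma adjusted p = 0.0375), and Abcc9, given above. Atrial markers summed to 1465, 10077 and 10964 FPKM, against 264, 717 and 183, and nearly all of each AngII sum was Nppa. The atrial light chain Myl7, looked up afterwards, was at 2.88, 2.27 and 1.08 FPKM with AngII, against 0.44, 0.56 and 3.26 with saline. Erythroid and platelet markers summed to 291, 2336 and 905 FPKM, against 322, 1429 and 178, with AngII 2 and saline 2 highest in their groups. Uchl1, a ubiquitin hydrolase of neurons, rose among 10 Schwann and neuronal markers, with 21.23, 70.3 and 72.2 FPKM with AngII, against 7.52, 14.35 and 7.1 FPKM with saline (log2 difference 2.26, SE 0.44, limma adjusted p = 0.0411). Of those markers 4 had a positive and 6 a negative difference, with a median of -0.065, so Uchl1 does not stand for the list. Ccl21b, 1 of several near-identical chemokine copies and therefore uncertain, was at 52.93, 52 and 41.67 FPKM in AngII 1, 2 and 3 and listed at 0, 16.02 and 0 FPKM in saline 1, 2 and 3 (limma adjusted p = 0.0421).

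Among genes outside these themes, those of smallest p that rose included several with tight libraries. The choice by smallest p and by lack of overlap favours such genes. Ier3, an immediate early survival gene, had 62.61, 79.28 and 71.43 FPKM in AngII hearts, against 19.71, 27.85 and 20.29 FPKM in saline hearts (log2 difference 1.62, SE 0.18, limma adjusted p = 0.0178). Gadd45g, a stress sensor of growth arrest, had 20.79, 22.06 and 25.52 FPKM in the AngII libraries, against 9.47, 10.32 and 10.04 FPKM in the saline libraries (log2 difference 1.12, SE 0.14, limma adjusted p = 0.0178). Socs2, a suppressor of cytokine and growth hormone signals, had 80.78, 73.09 and 61.34 FPKM with AngII, against 27.87, 33.9 and 32.04 FPKM with saline (log2 difference 1.17, SE 0.16, limma adjusted p = 0.0203). In each of them saline 2 lay with saline 1 and 3, apart from a slightly higher value of Ier3. Igf1, insulin-like growth factor 1, had 6.17, 12.49 and 6.14 FPKM in AngII hearts, against 2, 3.22 and 2.12 FPKM in saline hearts (log2 difference 1.38, SE 0.25, limma adjusted p = 0.0403). The cyclin gene Ccnd2 had 36.02, 37.46 and 36.9 FPKM in the AngII libraries, against 20.69, 26.86 and 21.38 FPKM in the saline libraries (log2 difference 0.67, SE 0.15, limma adjusted p = 0.0471). Ppfia1, a liprin that organizes adhesion sites, had 29.49, 30.55 and 33.14 FPKM with AngII, against 12.93, 10.9 and 12.95 FPKM with saline (log2 difference 1.28, SE 0.20, limma adjusted p = 0.0366). The growth-factor and cyclin values overlapped in no library between groups. Anapc15 (log2 difference 1.34, limma adjusted p = 0.0332), Nmt2 (log2 difference 1.02, limma adjusted p = 0.0332), Baiap2 (log2 difference 0.99, limma adjusted p = 0.034), Zbtb16 (log2 difference 0.99, limma adjusted p = 0.0392), Cd72 (log2 difference 1.56, limma adjusted p = 0.0392) and Mettl1 (log2 difference 0.83, limma adjusted p = 0.0366) complete the list of rising genes named by p.

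Genes that fell by the same rule included Pla2g5, a secreted phospholipase A2 that can release fatty acids from membranes, with 7.1, 7.68 and 4.84 FPKM in AngII hearts, against 29.2, 20.79 and 39.27 FPKM in saline hearts (log2 difference -2.004, SE 0.24, limma adjusted p = 0.0178). Nubpl, an assembly factor of respiratory complex I, had 1.88, 2.32 and 2.71 FPKM in the AngII libraries, against 9.96, 6.52 and 10.46 FPKM in the saline libraries (log2 difference -1.58, SE 0.19, limma adjusted p = 0.0178). Scara5, a ferritin receptor found on stromal cells, had 2.35, 2.03 and 2.17 FPKM with AngII, against 8.74, 7.36 and 6.86 FPKM with saline (log2 difference -1.44, SE 0.18, limma adjusted p = 0.0178). For Scara5 saline 2 lay between saline 1 and 3, and for the other pair it was the lowest saline library. Cbx7, a Polycomb subunit, had 2.01, 2.52 and 3.08 FPKM in AngII hearts, against 7.06, 7.21 and 8.28 FPKM in saline hearts (log2 difference -1.28, SE 0.17, limma adjusted p = 0.0203). Penk, the precursor of enkephalin peptides, had 1.45, 1.12 and 1.11 FPKM in the AngII libraries, against 4.19, 8.21 and 4.34 FPKM in the saline libraries (log2 difference -1.51, SE 0.23, limma adjusted p = 0.0332), with saline 2 the highest library. Cited2, a transcriptional co-regulator of hypoxia responses, had 9, 13.12 and 14.06 FPKM with AngII, against 35.63, 28.65 and 32.91 FPKM with saline (log2 difference -1.37, SE 0.21, limma adjusted p = 0.0332). Fgf16, a growth factor of cardiomyocytes, fell (log2 difference -0.79, limma adjusted p = 0.0411), as did Ano10 (log2 difference -1.37, limma adjusted p = 0.0238).

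Stress-response genes went both ways. Of 30 genes of the unfolded protein and integrated stress response 1 rose and 2 fell, with a median of -0.38 (-0.57 without saline 2, when 3 rose and 13 fell). Ddit3, the transcription factor CHOP, had 56.47, 64.27 and 61.08 FPKM in AngII hearts, against 17.21, 31.04 and 12.41 FPKM in saline hearts (log2 difference 1.63, SE 0.30, limma adjusted p = 0.0403). Dnajb9, a chaperone of the endoplasmic reticulum, had 5.45, 8.71 and 6 FPKM in the AngII libraries, against 37.04, 10.99 and 37.16 FPKM in the saline libraries (log2 difference -1.77, SE 0.40, limma adjusted p = 0.0471). Herpud1, which acts in disposal of proteins from that compartment, had 52.36, 60.51 and 63.77 FPKM with AngII, against 116.63, 88.83 and 112.56 FPKM with saline (log2 difference -0.83, SE 0.16, limma adjusted p = 0.0411). All 3 genes separated the groups without overlap. The list differed by a median of -0.015 between AngII and saline 2, and by -0.57 between saline 2 and the mean of saline 1 and 3. Prdx3, the mitochondrial peroxiredoxin, fell (log2 difference -1.17, limma adjusted p = 0.0453), 1 of 35 antioxidant and oxidase genes (without saline 2, 5 higher and 8 lower). Fkbp4, a co-chaperone of steroid receptors, fell (log2 difference -0.95, limma adjusted p = 0.0453), 1 of 28 cytosolic chaperone genes (without saline 2, 3 higher and 6 lower). The single calls of the antioxidant and chaperone lists are near the 3.11% of all genes called.

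Some lists differed between saline 2 and the other saline libraries about as much as between AngII and saline. None of 21 circadian clock genes passed with all libraries, and 9 were called higher and 4 lower without saline 2. Dbp, a transcription factor driven directly by the clock, had 172.31, 130.44 and 106.59 FPKM in AngII hearts, against 9.88, 181.56 and 9.83 FPKM in saline hearts. Saline 2 was the highest of these 6 libraries, and saline 1 and 3 the lowest (log2 difference 2.28, SE 0.88, limma adjusted p = 0.107). Dbp passed without saline 2 (log2 difference 3.63, limma adjusted p = 0.000742). Tef, a relative of Dbp, had 91.94, 55.66 and 62.49 FPKM in the AngII libraries, against 24.7, 65.63 and 25.76 FPKM in the saline libraries (log2 difference 0.96, SE 0.34, limma adjusted p = 0.0905), and also passed without saline 2 (log2 difference 1.40, limma adjusted p = 0.00375). The next genes were picked after their values were seen. Arntl, which encodes the activator BMAL1, had 0.21, 0.89 and 0.86 FPKM with AngII, against 12.05, 1.34 and 11.27 FPKM with saline. Per2, a clock repressor, had 18.86, 11.48 and 7.32 FPKM in AngII hearts, against 0.66, 8.59 and 0.54 FPKM in saline hearts. Per3 had 20.89, 12.84 and 10.5 FPKM in the AngII libraries, against 1.58, 11.58 and 1.74 FPKM in the saline libraries. None of these 3 passed with all libraries, and all 3 passed without saline 2. Arntl was low and Per2 and Per3 were high in all AngII libraries and in saline 2, and the reverse held in saline 1 and 3. Nr1d1, of the same list, did not follow this order, with 37.23, 43.67 and 27.38 FPKM with AngII, against 51.91, 93.28 and 41.69 FPKM with saline. For it, saline 2 lay farther from the AngII libraries than saline 1 and 3 did. The median of the list was -0.22 for AngII minus saline and 0.30 for saline 2 minus saline 1 and 3. Since the hour of collection is unknown, its part in any result was not tested.

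**Figure D5:**
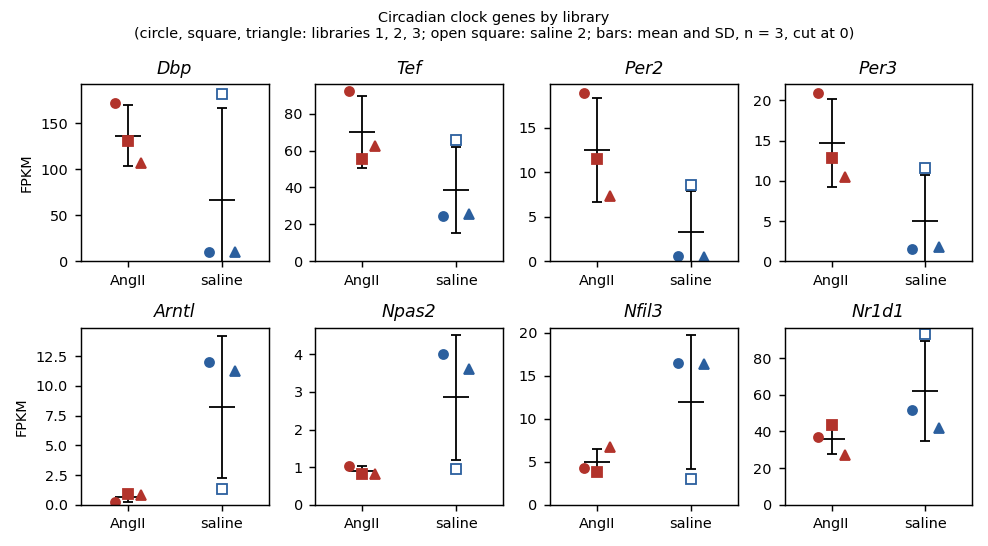
FPKM of 8 circadian clock genes in each library, AngII on the left of each panel and saline on the right; points are libraries, the open square is saline 2, and bars give mean and SD (n = 3, cut at 0). For Dbp, Per2, Per3, Arntl and Npas2 the open square lies with the AngII libraries and away from saline 1 and 3.

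Cytosolic ribosomal proteins showed the same arrangement, with none of 50 called, 46 positive and a median of 0.56 (0.81 without saline 2, when 40 were called higher). Their median difference was 0.06 between AngII and saline 2 and 0.80 between saline 2 and saline 1 and 3. These genes are short, with a median longest transcript of 1114 bases, and the shortest bin of all genes had a median log2 difference of 0.22. The length and GC correction covered these genes too, but its median for this list is not given here. The part of length in this list was not tested beyond that correction. Rpl28 had 1553.2, 1179.9 and 1409.2 FPKM with AngII, against 528.98, 1188.5 and 570.83 FPKM with saline, and reads from pseudogene copies could add to it; it did not pass (log2 difference 0.95, SE 0.31, limma adjusted p = 0.0802) but passed without saline 2 (log2 difference 1.32, limma adjusted p = 0.00467). Splicing kinases and SR factors also had no call among 35 genes, with 32 positive and a median of 0.54 (0.65 without saline 2, when 15 were called higher and 1 lower). Of these 23 lay without overlap above saline, against 17.9% of all genes, and the list had a median of 0.27 between AngII and saline 2. The metallothionein Mt1 had 1550, 1179.3 and 1777.5 FPKM in AngII hearts, against 287.6, 1197.2 and 286.23 FPKM in saline hearts and did not pass (log2 difference 1.68, SE 0.48, limma adjusted p = 0.069). Saline 2 lay within the AngII range, and Mt1 passed without it (log2 difference 2.36, limma adjusted p = 0.00162).

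Neither Ntn1 nor Ptger3, the genes behind the series title, was called with all libraries. That title names the EP3 receptor, through which PGE1 can act, and netrin-1 in a lessening of AngII hypertrophy. Ntn1, which encodes netrin-1, a secreted guidance protein, had 4.32, 6.06 and 4.71 FPKM in the AngII libraries, against 24.94, 9.39 and 18.95 FPKM in the saline libraries. All AngII libraries lay below all saline libraries, and the gene missed the threshold with all libraries (log2 difference -1.55, SE 0.37, limma adjusted p = 0.0522) and passed without saline 2 (log2 difference -1.93, limma adjusted p = 0.00523). Ptger3, the EP3 receptor gene, was at 0.06, 0.11 and 0.08 FPKM with AngII, against 0.07, 0 and 0 with saline, under the filter, so it was not tested. Of 18 tested genes of the netrin and prostanoid systems Pla2g5 alone passed (without saline 2, 1 higher and 7 lower).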

How the data were processed

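Heart messenger RNA was measured in 3 groups of 3 libraries. Trizol was used for total RNA, oligo(dT) for messenger RNA and random hexamers for priming, and a BGISEQ-500 read 50 bases from 1 end, per the labels' protocols. The submitters' processing notes name mm9, RSEM 1.2.12, Bowtie2 2.2.5 and HISAT2 2.0.4 without their roles. The authors deposited 1 table of normalized expression values per gene and library, read here as FPKM from the values, since the header does not name the unit. The deposited log2 ratios of the authors were not used.

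Values were taken as log2(FPKM + 1), which understates changes of low genes. The 11902 genes that reached 1 FPKM in 3 or more libraries entered 1 limma 3.58.1 model (R 4.3.3) with a mean for each of the 3 groups, a variance trend and 6 residual degrees of freedom. The contrast was AngII minus saline, two-sided, with Benjamini-Hochberg adjustment over all of them and a threshold of 0.05. The code of the fit was run on simulated data with independent noise smaller than that of the real libraries and no deviating library. That run cannot show how the calls behave with libraries such as saline 2. No 2 libraries held identical values. Of the gene symbols, 11 stored as dates were restored from their identifiers, 99.4% of which were found in a RefSeq table. Transcript lengths and GC content came from another build than mm9 and were found for 99.2% of the genes tested.

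The comparison, 38 pathway lists and 16 lists of cell type markers were chosen with earlier results of these data known. Lists are described by counts and medians, with no set test. Genes named are up to 15 in each direction by smallest p, provided that they passed, had a mean of 5 FPKM in either group and had no overlap of libraries, without unnamed gene models; up to 4 members of each list past the threshold, or its most abundant members where fewer than 2 passed; and the genes of the series title and of hypertrophy. Called list members beyond these 4 are given by name, some with their log2 difference, and genes picked after their values were seen are marked so. Alternatives were other samples, filters, pseudocounts, scalings, variance models and a fold threshold, with 2 length and GC corrections added after the data were seen.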

Additional observations from a re-analysis of the deposited data

How the results depend on the processing

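Against 370 genes called (156 higher, 214 lower), leaving out 1 library at a time gave 0 to 4522 genes, 0 to 2134 higher and 0 to 2388 lower. Without AngII+PGE1 1 there were 1585 (865 higher, 720 lower), without AngII+PGE1 2 there were 15 and without AngII+PGE1 3 there were 31, which changes only the shared estimate of spread. The AngII and saline libraries alone gave 265 genes (162 higher, 103 lower), 186 of them shared. No filter gave 88 of 16951 genes (44 higher, 44 lower). Quantile normalization gave 593 (251 higher, 342 lower), the length and GC correction 789 (315 higher, 474 lower), that correction without saline 2 gave 4718 (2041 higher, 2677 lower), and leaving out saline 2 and AngII+PGE1 1 together 5815 (2881 higher, 2934 lower). A fold threshold of 1.5 gave 0 genes in limma (0 higher, 0 lower), with 436 at an unadjusted p under 0.05. A minimum of 5 FPKM (412), a pseudocount of 0.1 (331), median-ratio scaling (347) and robust limma (332) stayed within 1.5 times the count. No called gene changed sign in any of these. Of the 98 named genes called, 98 passed without saline 2, 66 with 2 groups alone, 39 without the filter and 95 after the length and GC correction. The cause of the other changes was not tested. No paired analysis was possible because the columns do not carry the replicate numbers of the labels. Depth is unknown, so no limit by counting can be given.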

Other observations

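Gene groups not described above showed few calls. Of 21 immediate early genes Ier3 rose and Zfp36, which destabilizes cytokine messages, fell, with 21.71, 22.58 and 14.73 FPKM with AngII, against 55.27, 30.2 and 41.24 FPKM with saline (log2 difference -1.05, SE 0.23, limma adjusted p = 0.0468). Without saline 2, 2 of these genes were called higher and 9 lower, against 17.9% and 20.1% of all genes in that fit. Of 26 cell cycle genes Ccnd2 rose, and the list had a median log2 difference of 0.35 (without saline 2, 3 higher and none lower). Of 24 IGF and growth factor genes Igf1 rose and Fgf16 fell, with a median of 0.06 (without saline 2, 4 higher and 4 lower). None of 35 proteasome genes and none of 26 ubiquitin ligase and autophagy genes passed, with medians of 0.13 and -0.25; without saline 2, 7 and 1 were called higher and 4 and 7 lower, shares near or under those of all genes except for the 7 of 26 lower. Of 14 long noncoding RNAs listed 1 was in the table, Snhg11, which rose, with 7.45, 4.6 and 5.81 FPKM in AngII hearts, against 0.62, 2.42 and 0.9 FPKM in saline hearts (log2 difference 1.65, SE 0.37, limma adjusted p = 0.0468).

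Among markers, Mpped2 fell, the only call among 10 ventricular markers, with 4.28, 4.15 and 4.77 FPKM in the AngII libraries, against 10.45, 7.5 and 12.67 FPKM in the saline libraries (log2 difference -1.03, SE 0.22, limma adjusted p = 0.0453). The summed level of lymphatic endothelial markers was 197, 231 and 157 FPKM with AngII, against 96.7, 137 and 117 FPKM with saline. This sum holds the uncertain Ccl21b, and 7 of the 9 tested markers had a negative difference, with a median of -0.14. Summed markers of T, B and NK cells were 57.8, 70.0 and 54.4 FPKM with AngII, against 20.2, 25.4 and 19.5 FPKM with saline, and Cd52 made up most of each sum. MHC class II markers summed to 277, 417 and 343 FPKM with AngII, against 387, 358 and 423 FPKM with saline, with no call among 7. Epicardial markers summed to 24.0, 35.0 and 6.83 FPKM with AngII, against 21.9, 8.46 and 51.4 FPKM with saline. None of 8 epicardial, 3 adipocyte and 5 skeletal muscle markers passed.

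Other letters were searched in the promoter windows on both strands. TGANTCA, the AP-1 site, was in 16 of 121 genes called higher (13.2%) and 10 of 172 called lower (5.81%), against 6.17% of the promoters of genes tested, and in none of 14 matricellular genes. The E-box CACGTG was in 5 of 17 clock genes (29.4%), against 11.9% of the promoters of genes tested. AGGTCANAGGTCA, the DR1 site of PPAR receptors, and TCAAGGTCA, the site of estrogen-related receptors, were in none of the windows of 26 fatty acid oxidation genes, against 0.0422% and 0.327% of the promoters of genes tested. At shares so low, no match among 26 genes was likely in advance, so nothing follows from it.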
